A study of Mus musculus with 8 samples.

Results

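The 8 genes described here are markers of astrocytes: *Gfap*, *Vim*, *Aqp4*, *Gja1*, *Glul*, *S100b*, *Apoe* and *Clu*. They were taken by annotated gene symbol from the 8251 named genes of the array and are read by 14 of its 12422 probe sets, where a probe set is the group of short probes that together give 1 signal. The genes were picked from earlier results of these data, in which *Gfap* had a higher signal in the mutant cortex. The difference between the genotypes is therefore given for all 8 genes as a description, with no p-value, and a count of those past the threshold used for all probe sets only describes the choice. Tests of these genes are kept to the changes over time.

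Cortex of 8 individual C57/bl6 mice, aged 4 months and housed with 12 h of light and 12 h of dark, was measured with 1 Affymetrix array per mouse. The wild-type (WT) mice and the mutants were each sampled at ZT4, in the light phase, and at ZT16, in the dark phase, with 2 mice in each of the 4 groups. ZT counts hours from lights on. The mutants (S1/2-/-) are null for both SHARP1 (*Bhlhe41*) and SHARP2 (*Bhlhe40*), basic helix-loop-helix repressors of the circadian clock, and their line had been crossed back to C57Bl/6. All samples were the cortical part of coronal slices from bregma 0 to -2 mm, and the animals were anesthetized before decapitation. The labels name individual mice and give no litter. The p-values rest on the spread between these mice, pooled with that of other probe sets of like signal.

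Astrocytes are the glial cells that ensheath synapses and blood vessels. They take up glutamate and potassium, pass ions and metabolites through gap junctions, and supply neurons with lipids in lipoprotein particles. In response to injury or disease they become reactive, a state for which a rise of GFAP is the classical sign, and in the healthy cortex GFAP is found in a part of the astrocytes only. In tissue, fewer astrocytes and less RNA per astrocyte cannot be told apart.

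The values are MAS5 signals on a linear scale, scaled by the authors so that the trimmed mean was 500 on every array, and the median signals of the 8 arrays lay between 186 and 206. Replicate mice correlated with r of 0.936 to 0.940 over all probe sets. The probe set of *Bhlhe40* gave 1074 and 983 in WT mice and 913 and 834 in S1/2-/- mice at ZT4, and 1189 and 1285 in WT against 1043 and 889 in S1/2-/- mice at ZT16. This signal was lower in the mutants but far from lost; where these probes lie relative to the deleted part was not determined, so the probe set does not check the genotype. No probe set named *Bhlhe41* was used here. Of the 14 probe sets of the 8 genes, 12 passed the filter on low signals (a mean of at least 110.9 over the arrays), and the only probe set of *Vim* and the dimmer one of *Apoe* did not.

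*Gfap*, which encodes the main intermediate filament protein of astrocytes, was higher in all 4 S1/2-/- mice than in any of the 4 WT mice with both of its probe sets. The brighter one (94144_g_at) read 388 and 508 in WT cortex at ZT4, and 510.5 and 667 in WT cortex at ZT16. It read 958 and 1057 in S1/2-/- cortex at ZT4, and 1378 and 1150.4 in S1/2-/- cortex at ZT16. The lowest mutant mouse was thus above the highest WT mouse by a wide step, and the 4 group means rose in the order WT at ZT4, WT at ZT16, S1/2-/- at ZT4 and S1/2-/- at ZT16. The means were 448 ± 85.1, 589 ± 110.4, 1008 ± 69.5 and 1264 ± 161 (SD, n = 2 mice each). The 2 WT groups nearly touched, at 508 and 510.5, and the gap between the 2 mutant groups, from 1057 to 1150.4, was smaller than the distance between the mutants of ZT16.

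In the comparison averaged over both times, the log2 signal of *Gfap* on this probe set was higher in S1/2-/- mice by 1.15 (SE 0.13, n = 4 mice per genotype), a 2.21-fold difference. At ZT4 alone it was higher by 1.18 (SE 0.19) and at ZT16 alone by 1.11 (SE 0.19). The dimmer probe set of *Gfap* (94143_at) gave 189 and 221 in WT mice at ZT4, with 172 and 199 at ZT16. The mutants gave 256 and 299 (ZT4) and 330.3 and 346 (ZT16), again without overlap between the genotypes. Its log2 difference was 0.65 (SE 0.17) on average, 0.44 (SE 0.24) at ZT4 and 0.87 (SE 0.24) at ZT16, so the 2 probe sets of the gene had the same direction and unlike sizes.

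The region before the *Gfap* start site is shown because SHARP proteins bind DNA at E-boxes, so that a reader can see whether such letters stand next to the gene of this group with the largest difference. It is taken from RefSeq on GRCm38.p6, at chr11:102897201-102897450 on the minus strand, and holds the 250 bases before the start, 5′ to 3′. No base is in capitals because neither the general E-box CANNTG nor its palindromic form CACGTG, which both read the same on either strand, was found in it.
Gfap: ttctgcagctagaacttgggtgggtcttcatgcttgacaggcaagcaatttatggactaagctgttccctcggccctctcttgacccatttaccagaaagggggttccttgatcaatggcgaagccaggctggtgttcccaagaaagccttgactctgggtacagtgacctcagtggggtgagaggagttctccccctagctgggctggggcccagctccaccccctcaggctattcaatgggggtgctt
Of the 32851 promoter windows of this length that were read, with 1 chromosome left out, 66.2% held CANNTG and 6.02% held CACGTG, which is one case of CANNTG. No window of *Aqp4* or *Clu* was read. Among the other genes of the group, *Glul* held 2 matches to CANNTG, *Gja1* and *S100b* held 1 each, *Vim* held 0, and 1 of the 3 start sites of *Apoe* held 1. CACGTG was in none of them. These matches describe letters in a short window, and binding was not measured.

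*Vim*, which encodes vimentin, the filament protein that astrocytes carry beside GFAP and raise with it when reactive, had a dim signal in every mouse. It gave 100.001 and 151 in WT mice at ZT4, 137 and 72.7 in WT mice at ZT16, 87.5 and 153 in S1/2-/- mice at ZT4, and 84.6 and 86.5 in S1/2-/- mice at ZT16. The genotypes overlapped over nearly the whole range. In a fit without the filter its log2 difference between the genotypes was -0.16 with an SE of 0.35, so a change of *Vim* in either direction was not detectable at this signal.

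*Aqp4* encodes the water channel of the astrocyte endfeet on blood vessels. Its brighter probe set (102704_at) gave 503 and 549 in WT mice at ZT4 and 425 and 306 at ZT16. The S1/2-/- mice gave 981 and 607 at ZT4 and 511 and 718 at ZT16. One mutant mouse at ZT16 lay below one WT mouse at ZT4, and otherwise the mutants were above WT. The log2 difference was 0.65 (SE 0.19) averaged over both times, 0.55 (SE 0.26) at ZT4 and 0.75 (SE 0.26) at ZT16. The dimmer probe set (102703_s_at) ranged from 173 to 309.9 in WT and from 280.5 to 419 in S1/2-/- mice, with a difference of 0.50 (SE 0.18). After *Gfap*, *Aqp4* thus had the largest positive difference of the group.

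*Gja1* encodes connexin 43, the main gap junction protein of astrocytes. On its brighter probe set (100064_f_at) it gave 4095 and 3985 in WT mice at ZT4, 4173 and 3587 in WT mice at ZT16, 5345 and 3925 in S1/2-/- mice at ZT4, and 3993 and 4717 in S1/2-/- mice at ZT16. In each mutant group 1 mouse was above all WT mice and 1 was within their range. The log2 difference was 0.17 (SE 0.11), and the dimmer probe set (100065_r_at), at 439.9 to 693 in WT and 599 to 856 in S1/2-/- mice, gave 0.33 (SE 0.17).

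*Glul* encodes glutamine synthetase, by which astrocytes turn the glutamate they take up into glutamine. It was the gene of the group with the lowest values in the mutants relative to WT, and among the probe sets above the filter its WT mice spread widely. Its brighter probe set (94852_at) gave 2630.3 and 1290.2 in WT mice at ZT4 and 1593 and 1136 at ZT16, against 1384 and 1159 in S1/2-/- mice at ZT4 and 1405 and 1524 at ZT16. A single WT mouse at ZT4 was above all others, and without regard to it the genotypes covered nearly the same range. On the other probe set (161826_r_at) it was the other WT mouse at ZT4 that was high, with 656 and 1115 in this group, 405 and 758 in WT at ZT16, and 417 to 520.3 over the 4 mutants. The 2 probe sets differed between the genotypes by -0.21 (SE 0.20) and -0.56 (SE 0.22) on the log2 scale, and at ZT16 they had opposite signs, at 0.12 (SE 0.28) and -0.26 (SE 0.31).

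*S100b*, a calcium-binding protein of astrocytes that is also found in oligodendrocytes, gave 1133 and 1114 in WT mice at ZT4, with 904 and 1148 at ZT16. Mutant signals were 1201 and 1341 for ZT4, then 1119 and 1293 for ZT16. All but 1 of the mutants were above every WT mouse. The log2 difference was small, 0.21 (SE 0.11), and nearly equal at both times, with 0.18 at ZT4 and 0.24 at ZT16 (SE 0.15 each).

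*Apoe*, the main lipoprotein component that astrocytes secrete, had a log2 difference of -0.02 (SE 0.07). Its signals (95356_at) were 16084 and 18496 in WT mice at ZT4, 18619 and 17504 in WT mice at ZT16, 19385 and 17579 in S1/2-/- mice at ZT4, and 15848 and 17214 in S1/2-/- mice at ZT16. The highest and the lowest of the 8 values were both from mutants. The second probe set of *Apoe* (161321_i_at) stayed between 7.8 and 70.7 in all mice and was below the filter.

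*Clu* encodes clusterin, a second lipoprotein component that astrocytes secrete and that acts as an extracellular chaperone. Its brighter probe set (95286_at) gave 7465 and 7587 in WT mice at ZT4 and 8406 and 9474 at ZT16, against 10393 and 9218 in S1/2-/- mice at ZT4 and 8821 and 9113 at ZT16. The 2 WT mice at ZT4 were below all 6 other mice, which overlapped. The dimmer probe set (161294_f_at) had the same layout, with 1969 in both WT mice at ZT4 and 2407 to 2743 in the other 6. At ZT4 the genotypes accordingly differed by 0.38 (SE 0.09) and 0.44 (SE 0.11) on the log2 scale, and at ZT16 by 0.01 (SE 0.09) and -0.01 (SE 0.11).

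**Figure D1:**
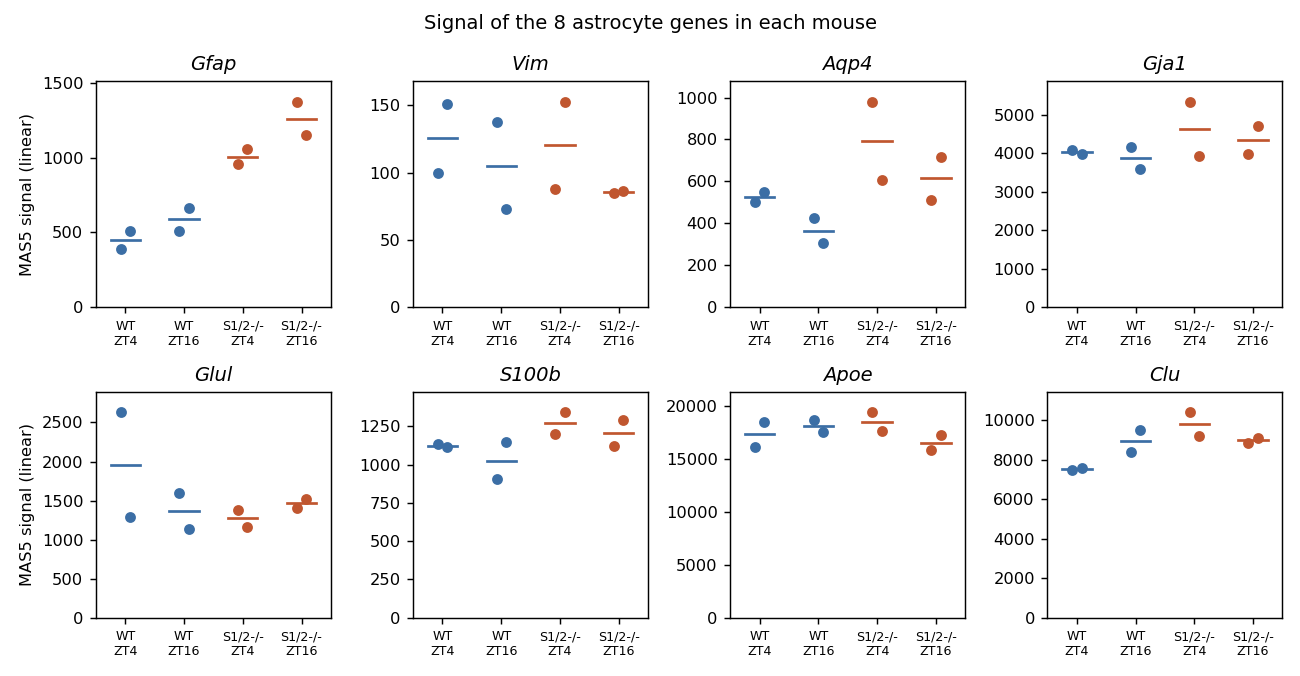
MAS5 signal on a linear axis from 0 (vertical) for the brightest probe set of each of the 8 genes in each of the 4 groups (horizontal); points are single mice and horizontal lines are the means of 2 mice. *Gfap* is the gene here whose 4 mutant mice, at 958 to 1378, all lie above its 4 WT mice, at 388 to 667, while the genotypes overlap for the other 7 genes.

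Whether *Gfap* differed alone or with the other astrocyte genes was read first from the group itself. Of the 12 probe sets above the filter, 9 had a higher mean in S1/2-/- mice and 3 a lower one, averaged over both times. Leaving out both of *Gfap*, 7 of 10 were higher and 3 lower, with a median log2 difference of 0.20 and a range of -0.56 to 0.65. Over all 7453 probe sets tested the median was 0.0018 and 50.4% were higher. The brighter probe set of *Gfap* had the largest difference of the group and the 22nd largest of all probe sets tested, and its other probe set stood 158th, next to the brighter one of *Aqp4* at 159th. Of all probe sets tested, 4.51% had a larger difference than the dimmer one of *Aqp4*, 20.4% a larger one than *Clu* (95286_at), 18.8% than *S100b* and 53.6% than *Apoe*. *Glul* lay toward the other end, where 86.5% had a larger difference than its brighter probe set and 98.7% a larger one than its dimmer one.

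**Figure D2:**
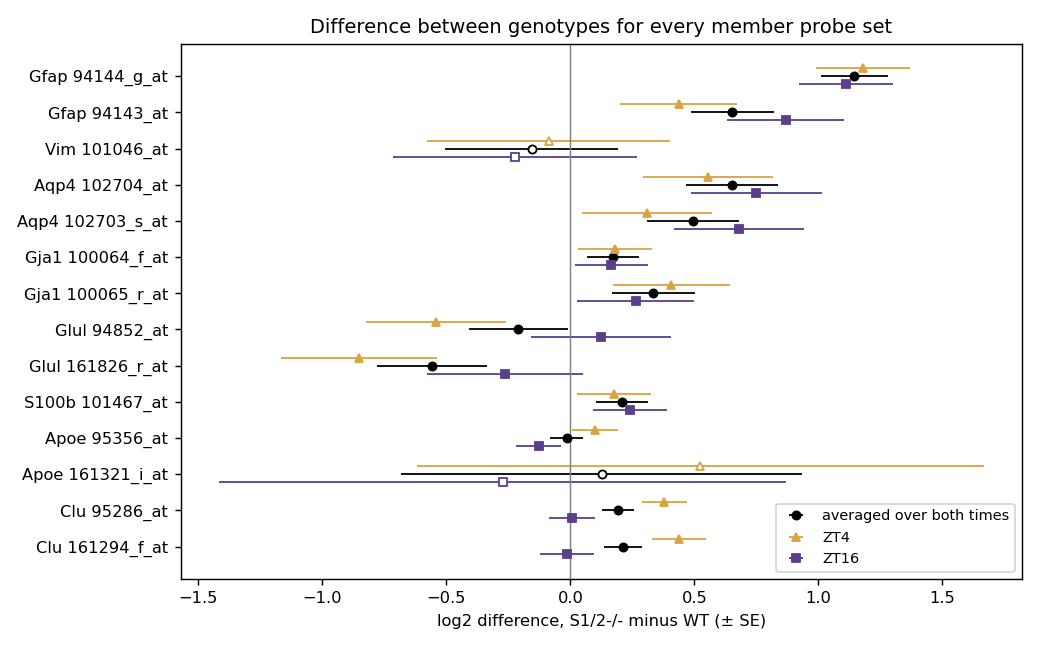
Log2 difference of S1/2-/- minus WT (horizontal) for all 14 probe sets of the 8 genes (vertical), averaged over both times (circles), at ZT4 (triangles) and at ZT16 (squares), with bars of 1 SE on either side; open symbols are the 2 probe sets below the filter. The brighter probe set of *Gfap* stands at 1.15, 1.18 and 1.11, and *Clu* is above 0 at ZT4 and near 0 at ZT16. *Glul* is to the left of 0 except for its brighter probe set at ZT16, at 0.12.

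A probe set was called when its fold change exceeded 1.5 with a Benjamini-Hochberg adjusted p under 0.05 in limma over all probe sets tested. Averaged over both times, 19 probe sets (0.255%) were called between the genotypes, 16 higher and 3 lower in S1/2-/- mice, and 1 of the 12 of this group was among them, the brighter one of *Gfap*. At ZT4 there were 7 calls (0.0939%) and at ZT16 there was 1 call (0.0134%), with 0 of the group in either. At the looser mark of a fold change over 1.5 with an unadjusted p under 0.05, the shares over all probe sets were 2.51%, 3.33% and 4.28% for these comparisons in turn. The group had 3, 2 and 4 such probe sets. Genotypes that do not overlap, with all 4 mutants above all 4 WT mice, were found for 3.43% of the probe sets tested, and with all below for 3.74%; of the 12, only the 2 of *Gfap* had such a split. Since the comparison of the genotypes chose the group, nothing is read from these counts. *Gfap* was no longer among the calls when any 1 of 5 arrays was left out (WT ZT4 replicate 1 and each of the 4 mutants), with a log2 difference of 1.05 to 1.21 in these fits, nor without the intensity trend.

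The choice of the genes is taken to rest on the comparison of the genotypes. Whether the changes over time had a part in it is not known, and they were tested with this limit. From ZT4 to ZT16 in WT mice, the log2 signal of *Gfap* did not pass the test, with differences of 0.39 (SE 0.19, adjusted p = 0.643) and -0.14 (SE 0.24, adjusted p = 0.909 in limma) on its 2 probe sets. In S1/2-/- mice the 2 differences were 0.32 (SE 0.19, adjusted p = 0.747) and 0.29 (SE 0.24, adjusted p = 0.824). The difference between the genotypes in this change was -0.07 (SE 0.27) for the brighter probe set, with a 95% interval from -0.67 to 0.53 (limma adjusted p = 0.976). On the dimmer one it was 0.43 (SE 0.33), from -0.31 to 1.18 (adjusted p = 0.912).

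Among the other genes, *Clu* had the lowest p over time. In WT mice it was higher at ZT16 than at ZT4 by 0.25 (SE 0.09) and 0.39 (SE 0.11) on its 2 probe sets, and limma gave adjusted p = 0.625 and 0.539. In S1/2-/- mice the same change was -0.13 (SE 0.09) and -0.06 (SE 0.11). The difference between these changes was -0.37 (SE 0.13) and -0.45 (SE 0.15), with unadjusted p = 0.0167 and 0.0147 and adjusted p = 0.811 and 0.765 in limma, so it did not pass. *Aqp4* had lower means at ZT16 than at ZT4 in both genotypes, by -0.54 (SE 0.26) in WT and -0.35 (SE 0.26) in S1/2-/- mice on its brighter probe set, with adjusted p = 0.645 and 0.7995 in limma. *Glul* differed by -0.45 (SE 0.28) and -0.63 (SE 0.31) in WT and by 0.21 (SE 0.28) and -0.04 (SE 0.31) in S1/2-/- mice (lowest limma adjusted p = 0.669).

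In all, 0 of the 12 probe sets of the group were called for a change over time or for its difference between the genotypes, and their lowest adjusted p in these 3 comparisons was 0.539. Over all probe sets, 1 (0.0134%) was called in WT mice, that of the immediate early gene *Dusp1*, a phosphatase that acts on MAP kinases, with a log2 difference of 1.67 (SE 0.19, limma adjusted p = 0.0379). In S1/2-/- mice 0 (0%) were called and for the difference between the genotypes also 0 (0%), at 545 and 424 probe sets with an unadjusted p under 0.05. At a fold change over 1.5 with an unadjusted p under 0.05 the shares were 3.45% in WT mice, 2.82% in S1/2-/- mice and 4% for the difference between them, and the group had 0 in each.

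Other genes known from astrocytes were then counted, 74 in all, of which 48 were on the array and 42 above the filter. Of the 42, 29 had a higher and 13 a lower mean in S1/2-/- mice averaged over both times. Their median log2 difference was 0.094, against 0.0018 over all probe sets tested. After median centring it was 0.026, against -0.066 over all probe sets tested. Only *Ntsr2*, 1 of the 42, was called, beside 0.255% of all probe sets tested. The genotypes did not overlap for 5 of the 42, with 4 higher and 1 lower in the mutants, beside 3.43% above and 3.74% below over all probe sets.

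*Ntsr2*, the low-affinity neurotensin receptor of astrocytes, gave 1678 and 1770.5 in WT mice at ZT4, 1742 and 1367 in WT mice at ZT16, 2841 and 2427 in S1/2-/- mice at ZT4, and 2332 and 2822 in S1/2-/- mice at ZT16. All 4 mutants were above all WT mice and the times did not separate within a genotype. The log2 difference was 0.67 (SE 0.10, limma adjusted p = 0.0352), and the call was lost under 12 of 16 alternative settings, with adjusted p up to 0.345 and log2 differences of 0.58 to 0.76. It was kept among the arrays left out only without WT ZT16 replicate 1 (adjusted p = 0.0082).

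By function, 18 genes of transport and junctions were listed, of which 7 were on the array and 6 were tested. Averaged over both times these 6 were all higher in S1/2-/- mice, with a median log2 difference of 0.30 and 0 called. At ZT4 alone 5 were higher and 1 was lower, at -0.01. *Slc1a2*, the main glutamate transporter of the forebrain, gave 386, 425, 368 and 202 in the 4 WT mice and 679, 497, 488 and 514 in the 4 mutants, without overlap, and a difference of 0.70 (SE 0.19, adjusted p = 0.225). *Atp1b2*, the glial beta subunit of the sodium pump, differed by 0.34 (SE 0.11, adjusted p = 0.296 in limma). *Gjb6*, which encodes connexin 30, the partner of connexin 43 in astrocyte junctions, differed by 0.26 (SE 0.12, adjusted p = 0.419 in limma).

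The 16 genes of metabolism and metal binding had 11 higher and 5 lower, a median of 0.04 and 0 called. Those with the largest moderated statistics were *Ndrg2* at 0.22 (SE 0.07), *Dio2*, which makes active thyroid hormone in astrocytes, at 0.43 (SE 0.14), and the metallothionein *Mt1* at 0.24 (SE 0.08). Their adjusted p lay between 0.293 and 0.307 in limma. The 20 secreted proteins, receptors and transcription factors had 12 higher and 8 lower (median 0.11). *Id4*, an inhibitor of basic helix-loop-helix factors, was second to *Ntsr2* at 0.51 (SE 0.13, limma adjusted p = 0.185). *Mfge8*, a secreted protein that marks cells for uptake, had the opposite sign, at 3583 to 4275 in WT and 3265 to 3533 in S1/2-/- mice, a difference of -0.20 (SE 0.07, limma adjusted p = 0.290).

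Genes known to rise in reactive astrocytes were higher in the mutants for some members and lower for others. Of 38 listed, 27 were on the array and 13 above the filter, of which 8 were higher and 5 lower in S1/2-/- mice. Their median log2 difference was 0.12, with 0 called. After median centring it was -0.01, against -0.066 over all probe sets tested. *S100a10*, an annexin-binding protein, ranged from 437 to 499 in WT and from 307 to 418 in S1/2-/- mice, a difference of -0.38 (SE 0.13, limma adjusted p = 0.295). *Stat3*, the transcription factor that cytokines activate in reactive astrocytes, was at 0.28 (SE 0.11) and *Cd14*, a co-receptor for bacterial lipid, at 0.31 (SE 0.13), with adjusted p = 0.361 and 0.385 in limma. *Serpina3n*, a protease inhibitor used as a marker of reactive astrocytes, was named after its values were seen. It gave 442, 561.7, 487 and 702 in WT mice and 552, 483, 411 and 257 in S1/2-/- mice, a difference of -0.40 (limma adjusted p = 0.423). This was the lowest difference of the 13 tested genes, of which 8 were higher in the mutants.

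The other intermediate filament and linker genes, 9 above the filter, split into 4 higher and 5 lower (median -0.12, 0 called). *Lmna*, which encodes the nuclear lamins A and C, had all 4 mutants (998 to 1087) below all 4 WT mice (1281 to 1476), with a difference of -0.35 (SE 0.09, limma adjusted p = 0.175). *Nes*, which encodes nestin, another filament protein of reactive astrocytes, was at 0.68 with an SE of 0.45 and overlapped widely, and the neuronal filament gene *Ina* was at 0.14 (SE 0.09).

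For the partners of *Apoe* and *Clu*, 13 genes of lipoprotein and cholesterol carriage were above the filter, 9 of them higher and 4 lower (median 0.10, 0 called). The enzyme *Lcat*, which esterifies cholesterol on these particles, and the cholesterol exporters *Abca1* and *Abcg1* had the largest statistics. Their log2 differences were 0.46 (SE 0.16), 0.39 (SE 0.16) and 0.20 (SE 0.08), with adjusted p of 0.297, 0.365 and 0.374 in limma. These 3 of the 13 had all mutants above all WT mice, beside 3.43% of all probe sets tested. They were named for their large statistics, which favours such a split. For the glutamate and glutamine cycle around *Glul*, 7 of 9 genes were higher with a median of 0.09, led by *Slc1a2*, then by the neuronal transporter *Slc1a1* at 0.19 (SE 0.10) and the transaminase *Got2* at 0.23 (SE 0.14), and 0 were called.

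**Figure D3:**
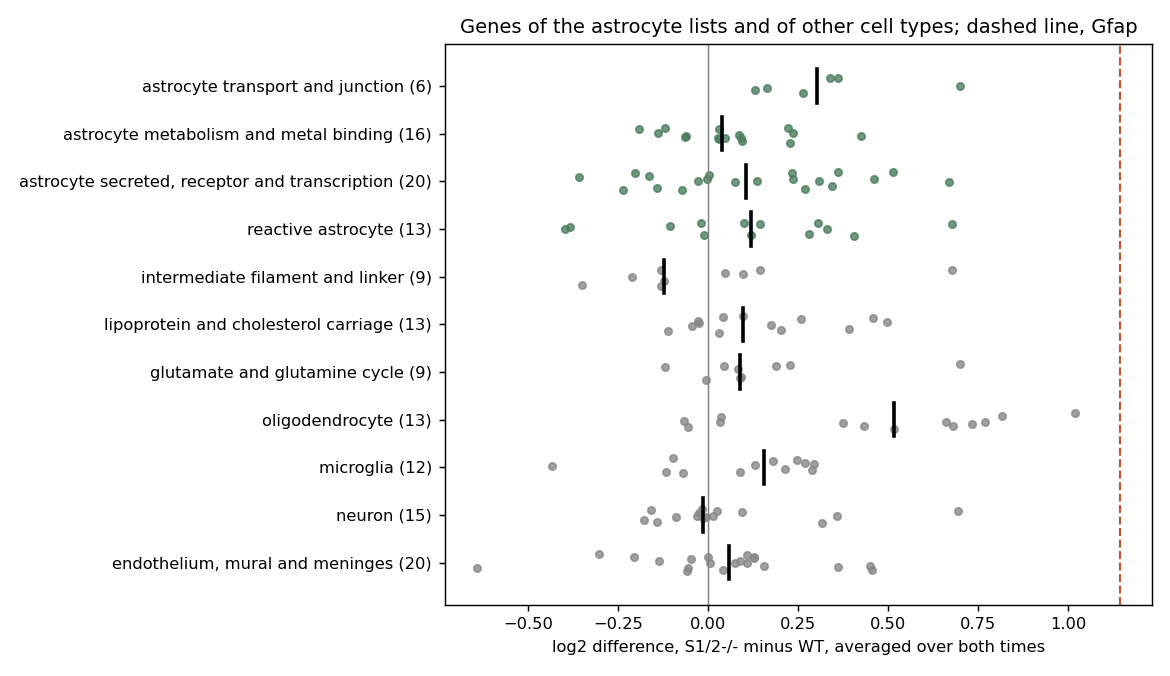
Log2 difference of S1/2-/- minus WT averaged over both times (horizontal) for each tested gene of 11 lists (vertical, with the number of genes tested); points are genes, spread vertically at random for view, short black bars are list medians, astrocyte lists are green and the others grey, and the dashed line is *Gfap* at 1.15. The astrocyte list medians lie between 0.04 and 0.30 and the oligodendrocyte median is at 0.52.

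Markers of oligodendrocytes, the myelin-forming glia, were counted beside these. Of 13 tested, 11 had a higher and 2 a lower mean in S1/2-/- mice averaged over both times. Their median log2 difference was 0.52. This median was larger at ZT4 alone, at 0.79, where 12 genes were above WT, 1 was below and 4 were called. It was 0.32 at ZT16 alone, where 9 genes were above WT, 4 were below and 0 were called. Averaged over both times 5 were called, beside 0.255% of all probe sets, *Cldn11*, *Mal*, *Gsn*, *Mog* and *Mag* (*Mog* and *Mag* were named after their values were seen). *Cldn11*, the claudin of myelin, differed by 1.02 (SE 0.09, limma adjusted p = 0.00491), *Mal*, a myelin proteolipid, by 0.68 (SE 0.08, adjusted p = 0.0093) and *Gsn*, the actin-severing protein gelsolin, by 0.77 (SE 0.11, adjusted p = 0.0264). The summed signal of the 13 was 25085 and 27513 in WT mice at ZT4, 32571 and 32523 in WT mice at ZT16, and 35297 to 38873 in the 4 mutants, so the 2 genotypes did not overlap. *Mal* and *Gsn* lost their calls when any 1 of 5 and of 6 arrays was left out, *Cldn11* only without S1/2-/- ZT16 replicate 2, and *Mog* and *Mag* when any 1 of 6 was left out. The part of these cells or of the slice in the values of *Gfap* was not tested.

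Markers of other cell types were counted in the same way. The median log2 difference was 0.15 over 12 microglial genes, with 8 higher, -0.01 over 15 neuronal genes, with 6 higher, and 0.06 over 20 genes of endothelium, mural cells and meninges, with 12 higher, and 0 were called in any of these. The 5 tested striatal genes were all higher, with a median of 0.40 and 0 called, and their summed signal was 6524 and 7034 in WT mice at ZT4 against 10419 to 18685 in the other 6 mice. Genes of choroid plexus and ependyma had 3 of 7 higher, and *Ttr*, the transport protein made by choroid plexus, was at 2582 and 2412 in WT mice at ZT16, at 1456 in 1 S1/2-/- mouse at ZT4, and at 83.2 to 331 in the other 5. The striatal and choroid sums had the WT mice of ZT4 at the low end, as *Clu* did, and whether the make-up of the slice had a part in the difference of *Clu* at ZT4 was not tested.

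The pattern of *Gfap* over the 8 mice was compared with that of every other tested probe set by Pearson correlation of log2 signals with its brighter probe set. The signals of *Gfap* fall into 2 clusters by genotype, so a high correlation can come from the same split, and no p is given. The genes most like it were *Bcan* (r = 0.981, Spearman's rho = 0.976), *Mpeg1* (r = 0.970, rho = 0.976), *Cldn11* (r = 0.969, rho = 0.976), *Krt4* (r = 0.969, rho = 0.952) and *Sod3* (r = 0.963, rho = 0.976). *Bcan* encodes brevican, a proteoglycan of the brain's extracellular matrix, *Mpeg1* a pore-forming protein of macrophages and microglia, *Krt4* a keratin of epithelia and *Sod3* the extracellular superoxide dismutase. These 5 were picked as the highest of 7452 values on the same 8 arrays, so their r with the mean of each genotype subtracted (0.795 to 0.938) and without the 2 arrays farthest from the median of *Gfap* (0.919 to 0.974) follow in part from that choice.

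The signals of *Bcan* were 1706, 1883, 2011 and 2332 in the WT mice and 2938, 2930.4, 3814 and 3796 in the mutants, in the order of ZT4 and then ZT16. As with *Gfap*, both mutants at ZT16 were the highest and both WT mice at ZT4 the lowest. The log2 difference between the genotypes was 0.76 (SE 0.08) for *Bcan* and 0.72 (SE 0.14) for *Mpeg1*. It was 0.66 (SE 0.17) for *Krt4* and 0.74 (SE 0.15) for *Sod3*. Genes picked for likeness to *Gfap*, whose signals split by genotype, are bound to differ between the genotypes. These differences are therefore given as a description, with no p-value. The genes most opposite to *Gfap* were *Ndufv2*, a subunit of mitochondrial complex I (r = -0.957), *Slc30a9* (r = -0.948), *Lancl1* (r = -0.948), *Gars*, the glycyl-tRNA synthetase (r = -0.946), and *Ppp1cb*, a catalytic subunit of protein phosphatase 1 (r = -0.938). Their differences between the genotypes were small, from -0.16 to -0.24, and the negative sign follows in part from the same choice.

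The 6 other genes above the filter were less like *Gfap* than its own second probe set, which stood 26th of 7452 (r = 0.912). *Vim*, below the filter, was not compared. *Clu* came next with r of 0.691 and 0.728 on its brighter and dimmer probe set, then *S100b* (0.555), *Aqp4* (0.426 and 0.448) and *Gja1* (0.284 and 0.313). *Apoe* was at -0.136 and *Glul* at -0.518 and -0.541. Over all tested probe sets the median r was 0.01 and the 5th and 95th percentiles were -0.730 and 0.721, and only the dimmer probe set of *Clu* and the second one of *Gfap* lay above that range. With the mean of each genotype subtracted, the second probe set of *Gfap* itself was at r = 0.454 (1659th of 7452), so this measure was loose even within the gene. On it *Aqp4* was at -0.793 and -0.606, *Gja1* at -0.596 and -0.769, *Glul* at -0.674 and 0.0095, and *Clu* at 0.341 and 0.640. These deviations hold the change over time as well as the spread between replicates.

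**Figure D4:**
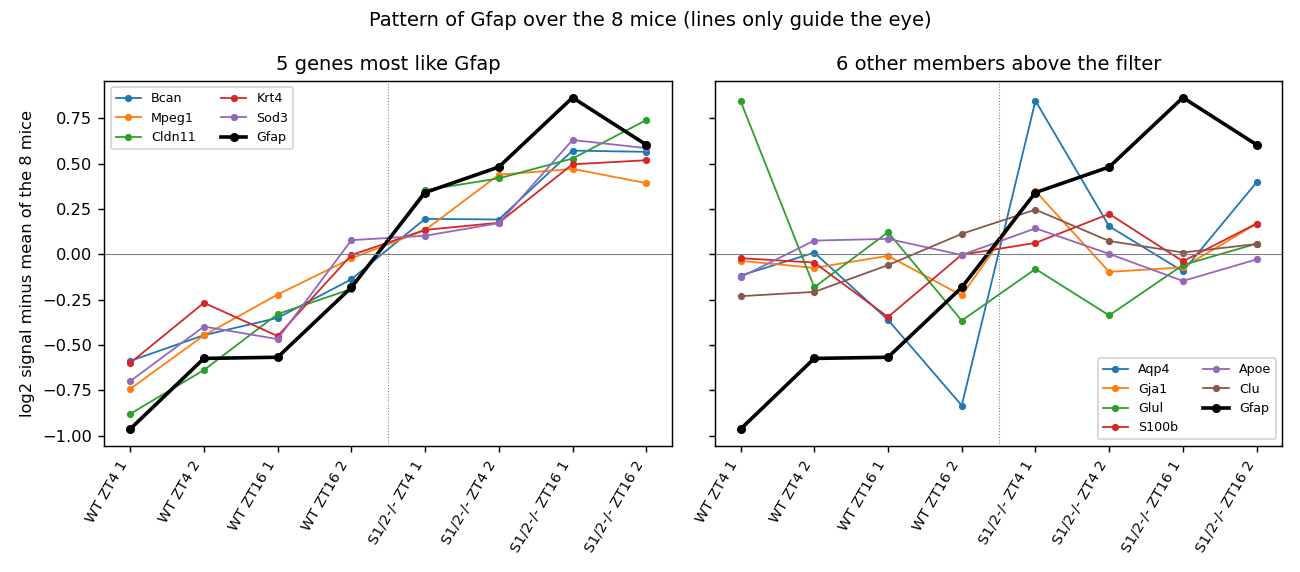
Log2 signal minus the mean of the 8 mice (vertical) in each mouse (horizontal, WT to the left and S1/2-/- to the right of the dotted line; lines only guide the eye) for *Gfap* (black) with the 5 genes most like it (left) and with the 6 other members above the filter (right, brightest probe set of each). *Bcan*, *Mpeg1*, *Cldn11*, *Krt4* and *Sod3* follow *Gfap* with r of 0.963 or more, while *Clu* is at 0.691 and *Glul* at -0.518.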

How the data were processed

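RNA of mouse cortex had been hybridised to 1 Affymetrix array per mouse, 8 in all. The authors deposited 1 table of MAS5 intensity values on a linear scale, 1 signal per probe set. The sources used here give no MAS5 version. The members and gene lists were chosen with earlier results of these data known. The 66 control probe sets were left out of 12488. Of the other 12422, 10833 had 1 gene symbol, 396 several and 1193 none. The 64 signals below 1 were raised to 1 before taking log2. A mean log2 signal of at least 6.79 (the 40th percentile; a signal of 110.9) was required for testing, which left 7453 probe sets; the 2 members below it have values from a fit without the filter. limma 3.58.1 in R 4.3.3 fitted the 4 group means over all 8 arrays with an intensity trend. Each probe set had 4 residual degrees of freedom, to which the spread of other probe sets added a median of 6.02. From this fit 6 comparisons were taken, with Benjamini-Hochberg adjustment over 7453. Lists use the brightest probe set of a gene; the 8 members are in no list. The letters f, g, i, r and s in a probe set's name mark designs that depart from a full set of probes unique to 1 transcript, so such signals can include related transcripts. Named genes are all members, the 5 most and 5 least like *Gfap*, up to 3 per list by moderated statistic, and the 3 lowest p among called genes; others are named as such. Figures were drawn and tables joined with python 3.11.15, pandas 2.3.3 and numpy 2.4.6. The steps were tested on simulated data. Alternatives were 2 other filters, quantile normalization, median centring, log2(signal + 16), no intensity trend, an ANOVA contrast (run here on every comparison, although the methods use ANOVA only between times and moderated statistics between genotypes), the replicate number as a block and each array left out. The number of arrays limits the precision.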

Additional observations from a re-analysis of the deposited data

How the results depend on the processing

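The direction of *Gfap* (94144_g_at) held under all 16 alternatives, but its call averaged over both times, and most counts of calls, depended on them. It was not among the calls without the intensity trend (1.15) or with the ANOVA (1.15), nor in 5 of 8 fits that left out 1 array, over which its difference was 1.05 to 1.24. As this comparison chose the gene, its p-values are not given. The count of 19 calls averaged over both times became 11 without a filter, 11 after median centring, 0 without the trend, 0 with the ANOVA, and 0 to 88 with 1 array left out: 1 and 10 without WT ZT4 replicate 1 and 2, 88 and 14 without those of WT ZT16, 6 and 5 without those of S1/2-/- ZT4, and 1 and 0 without those of S1/2-/- ZT16. The 7 calls at ZT4 became 12 with the filter at the 60th percentile, 11 after median centring, 0 without the trend, 0 with the ANOVA, and 0 to 14 with 1 array left out. The 1 call at ZT16 became 0 without a filter, 6 at the 60th percentile, 0 without the trend, 0 with the ANOVA, and 0 to 156. The 1 call over time in WT became 0, 4, 5, 0 and 0 under no filter, the 60th percentile, median centring, no trend and the ANOVA, and 0 to 100; in S1/2-/- mice 0 became 0 to 1, and the interaction went from 0 to as many as 17. The fits without WT ZT16 replicate 1 gave the 156, 100 and 17. The median of the other astrocyte genes (0.094) was 0.13 without a filter and 0.081 to 0.13 with 1 array left out. After median centring it was 0.026, where that of all probe sets was -0.066. No called value changed sign; of 1109 values of the 8 genes under the alternatives, those of *Gfap* averaged over both times left out, 50 had the other sign, all in values that were not called.

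The replicate numbers were shared by the groups, but mice of the same number did not deviate together (r from -0.00135 to 0.0982 over the 6 pairs of groups), so they are not taken as pairs. With the replicate block the counts were 13 at ZT4, 0 at ZT16, 10 over time in WT, and 2 for the interaction. Over the 8 genes, 0 probe sets other than those of *Gfap* were called under any alternative. Median centring put the median difference of all probe sets between the genotypes at -0.066, and *Gfap* stood 1.14 above that median with and without it. A signal below the filter, as for *Vim*, limits what can be seen.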
